A study of Homo sapiens with 12 samples.

Results

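The 32 genes described here encode proteins of ribosome biogenesis and of the nucleolus, together with SRM and ODC1, enzymes of polyamine synthesis that belong to the same growth programme. They were taken by symbol from a list chosen with earlier results of these data known. The shares of members given beside those of all genes are therefore descriptions, not independent support. All 32 were found among the 60649 gene IDs of both deposited count tables. RNA came from tumours grown as xenografts from Cal33, an established line of human squamous carcinoma of the head and neck. In the first experiment, 3 tumours treated with SW-682, a small-molecule inhibitor of TEAD transcription factors (group smTEADi), were set against 3 tumours given vehicle (group Vehicle). In the second, 3 tumours in which doxycycline switched on pTEADi, a genetically encoded TEAD inhibitor (group pTEADi, DOX+), were set against 3 tumours without doxycycline (group Control, DOX-). Doxycycline was given to the pTEADi group alone, so its own effect cannot be told apart from that of pTEADi. The labels name no other allele or agent, and they give neither dose, duration, host strain or age, nor the promoter that drives pTEADi, nor whether the Cal33 cells with it are 1 clone, nor whether the Control tumours carry the same construct. Nor is it said that each sample is a different animal, and the p-values therefore describe only how far these samples spread, part of which may be technical. The comparisons ask how the genes that make ribosomes respond when the partnership of YAP and TAZ with TEAD is blocked in 2 ways.

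Ribosomes are assembled mainly in the nucleolus. RNA polymerase I transcribes a long precursor of ribosomal RNA, small nucleolar ribonucleoproteins (snoRNPs) guide its methylation and pseudouridylation, and separate sets of assembly factors fold and cut it into the small and the large subunit. The programme takes up much of the energy of a growing cell, runs high in dividing tumour cells, and is a well known target of MYC, a transcription factor that binds the E-box sequence.

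The 12 libraries held 13576494 to 15433679 expected counts, of which the 32 genes took 0.148% to 0.352%. Single members had 61 to 8327 counts per library, and all passed the filter on low counts in both comparisons. No 2 libraries of a group agreed within counting noise. Levels are counts scaled to library size by TMM (CPM), fold changes are log2 of treated over control ± SE, and adjusted p-values come from the quasi-likelihood test of edgeR with Benjamini-Hochberg adjustment over all genes. All 10 squamous carcinoma markers were present, summing to 54478 to 73230.0 CPM in Vehicle, 40849 to 58019 in smTEADi, 64277 to 77109 in Control and 62813 to 75222 in pTEADi. Of these 10 markers EPCAM fell (adjusted p under 0.05) with SW-682 (-1.10 ± 0.20) and with pTEADi (-1.15 ± 0.15). With pTEADi KRT17 also fell (-1.31 ± 0.17), and SOX2 (0.83 ± 0.16) and DSG3 (0.32 ± 0.10) rose. That was 1 of 10 fallen with SW-682, against 3.48% of all genes. For pTEADi it was 2 of 10 fallen and 2 risen, against 13.6% and 12.7%. In bulk tumour RNA, fewer cells of a type and less RNA per cell cannot be told apart.

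Most of the 32 genes stood lower under both inhibitors. A negative log2 fold change was seen for 31 of 32 with pTEADi and 31 of 32 with SW-682, against 50.1% and 48.9% of all genes tested. With pTEADi, 21 of 32 fell and 0 rose, against 13.6% of all genes that fell and 12.7% that rose. The median log2 fold change of the 32 was -0.39, a level 23.5% lower, and their range was -1.01 to 0.07. In 22 of 32 every pTEADi library lay below every Control library, as in 21.7% of all genes tested. With SW-682 the median was -0.41, or 24.9% lower, in a range of -0.92 to 0.03, while the medians over all genes tested were 0.01 for SW-682 and -0.00067 for pTEADi.

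Only TCOF1 and NOP56 passed the threshold with SW-682, so 2 of 32 fell and 0 rose, against 3.48% of all genes that fell and 2.02% that rose. At an unadjusted p under 0.05, 21 of 32 were negative, against 14.0% of all genes. In 21 of 32 every smTEADi library lay below every Vehicle library, against 17.3% of all genes. DESeq2 called 15 members, limma-voom 5, and a fit that shared the spread of all 4 groups 18, each including TCOF1 and NOP56. Without Vehicle 2 the count was 13 (1622 over all genes), and without smTEADi 1 it was 1 (TCOF1, with 335 over all genes). It was 0 without smTEADi 2 (402 over all genes). Without Vehicle 1, Vehicle 3 or smTEADi 3 no member and no other gene passed, so a call lost there is not particular to a gene. The pTEADi count was 14 in the fit of all 4 groups (BYSL, GNL3, NIP7, RRP1B, RRP9, RRS1 and SRM were lost), 13 without pTEADi 2 and 17 to 20 without any other single library.

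**Figure D1:**
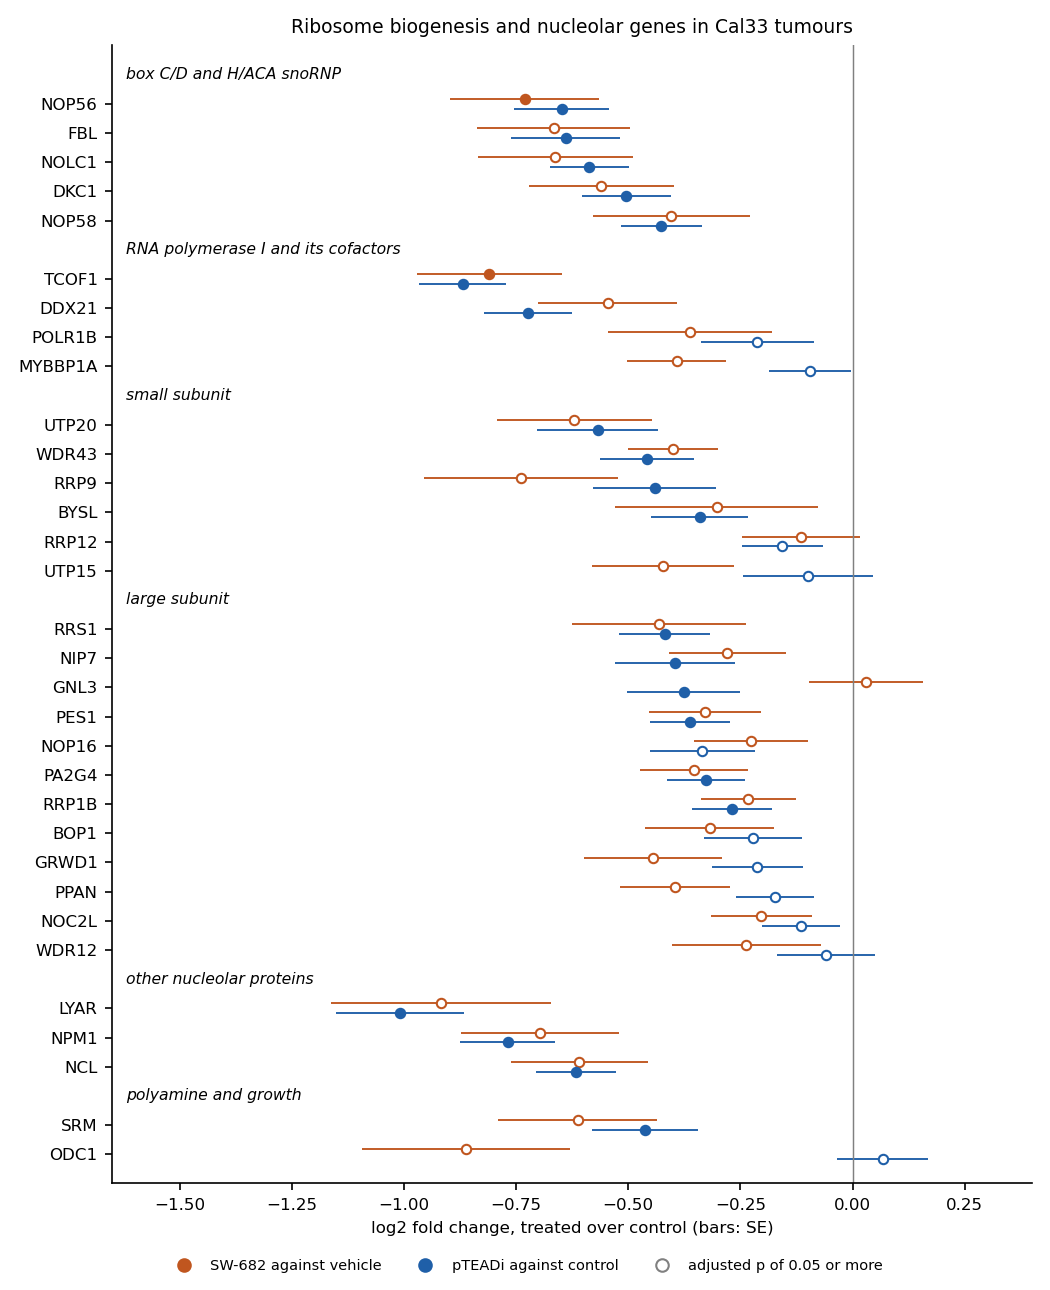
Log2 fold change (horizontal axis, treated over control, bars SE) of the 32 genes in both comparisons, grouped by role; filled points have an adjusted p under 0.05. Filled blue points mark 21 genes with pTEADi, filled orange points mark TCOF1 and NOP56 with SW-682, and no filled point lies to the right of 0.

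The promoters of the genes were read for 2 short motifs. RefSeq windows (GRCh38.p14) from 250 bases before to 50 bases after the start were matched by symbol for 25 of the 32 genes, 32 windows in all; NOP58, NOLC1, TCOF1, RRP12, BOP1, RRS1 and RRP1B did not match. The letters CACGTG, the E-box, which reads the same on both strands, occurred in the promoters of 12 of 25 genes (48.0%), against 12.2% of the genes tested in this data set and 8.77% of all genes in the table. By window the shares were 37.5% of the members' windows, 9.08% of those of genes tested and 7.26% of all windows. The letters GGAATG, the core of the TEAD recognition sequence, or their reverse complement CATTCC occurred in 4 of 25 genes, against 15.1% of genes tested, or 12.5% of windows against 11.6%. An E-box stood in the promoters of 10 of the 16 matched genes that fell with pTEADi and of 2 of the 9 that did not pass. The TEAD core stood in those of 3 of the 16 (LYAR, NPM1 and BYSL) and of 1 of the 9 (PPAN). These matches are letters in a window, not measured binding, and genes with 2 windows had 2 chances to hold them.

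Windows of 4 genes, all with an E-box, are printed as examples and do not represent the matched genes. LYAR fell furthest of the 32 with pTEADi, and FBL and UTP20 fell with pTEADi. ODC1, with 2 E-boxes in the window shown, did not pass with either inhibitor. No E-box was found for 13 matched genes, among them NOP56, DKC1, NCL and NPM1, which also fell with pTEADi. The other windows of LYAR and ODC1, not shown, hold no E-box, and that of LYAR holds CATTCC from position -249. Capitals mark E-boxes; in LYAR the E-box begins at position -64, in UTP20 at -10 and in FBL at 7, counted from the start site, whose first base is position 1.
LYAR (chr4:4289972-4290271, minus strand): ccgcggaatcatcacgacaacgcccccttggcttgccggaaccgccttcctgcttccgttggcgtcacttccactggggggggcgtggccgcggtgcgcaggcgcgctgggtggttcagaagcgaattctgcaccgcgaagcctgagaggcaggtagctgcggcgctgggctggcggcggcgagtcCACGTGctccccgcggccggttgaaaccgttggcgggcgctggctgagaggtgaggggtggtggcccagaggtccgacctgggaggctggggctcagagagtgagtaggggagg
UTP20 (chr12:101279855-101280154, plus strand): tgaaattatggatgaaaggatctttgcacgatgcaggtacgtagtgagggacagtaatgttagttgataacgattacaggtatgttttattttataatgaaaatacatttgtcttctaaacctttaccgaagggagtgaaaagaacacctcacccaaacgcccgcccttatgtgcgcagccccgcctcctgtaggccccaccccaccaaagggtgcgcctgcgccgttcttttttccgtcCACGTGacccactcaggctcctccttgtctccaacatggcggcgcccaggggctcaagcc
FBL (chr19:39846330-39846629, minus strand): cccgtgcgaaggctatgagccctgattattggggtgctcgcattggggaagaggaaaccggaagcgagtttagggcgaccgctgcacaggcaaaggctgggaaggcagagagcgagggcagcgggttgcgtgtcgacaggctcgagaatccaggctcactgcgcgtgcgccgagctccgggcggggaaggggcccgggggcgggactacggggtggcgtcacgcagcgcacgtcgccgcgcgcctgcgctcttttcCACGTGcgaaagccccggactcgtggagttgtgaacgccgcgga
ODC1 (chr2:10447963-10448262, minus strand): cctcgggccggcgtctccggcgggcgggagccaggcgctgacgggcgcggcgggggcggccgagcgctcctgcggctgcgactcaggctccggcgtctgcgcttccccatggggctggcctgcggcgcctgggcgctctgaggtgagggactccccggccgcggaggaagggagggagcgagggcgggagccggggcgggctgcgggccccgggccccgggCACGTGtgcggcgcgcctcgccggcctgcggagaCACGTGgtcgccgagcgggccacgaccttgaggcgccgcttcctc

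All 5 genes of snoRNP proteins fell with pTEADi, against 13.6% of all genes. NOP56, NOP58 and the methyltransferase FBL form the core of box C/D snoRNPs, which methylate ribosomal RNA; DKC1 is the pseudouridine synthase of H/ACA snoRNPs; NOLC1 is a nucleolar chaperone of both kinds. The median log2 fold change was -0.59 with pTEADi. With SW-682 1 of 5 fell, against 3.48% of all genes, at a median of -0.66. NOP56 (ENSG00000101361.17, GRCh38 chromosome 20, 2652593 to 2658393, plus strand) had 132, 122 and 165 CPM in Vehicle 1, 2 and 3 and 66.4, 85.3 and 100.5 CPM in smTEADi 1, 2 and 3. It had 195, 216 and 163 CPM in the Control and 127, 115 and 125 CPM in the pTEADi libraries, in the same order. The treated libraries lay below all of their controls in both experiments, and the level with pTEADi was close to that with vehicle in the other experiment. NOP56 fell by 39.7% with SW-682 (log2 -0.73 ± 0.17, adjusted p = 0.0425) and by 36.2% with pTEADi (-0.65 ± 0.11, adjusted p = 0.00103). The SW-682 call was lost without any single library except Vehicle 2 (adjusted p from 0.0262 to 0.198). No gene at all passed without Vehicle 1, Vehicle 3 or smTEADi 3.

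NOLC1 had the smallest p of this group with pTEADi. Its levels were 109, 121 and 108 CPM in Control and 77.8, 70.3 and 77.7 CPM in pTEADi libraries (-0.59 ± 0.09, adjusted p = 0.000609), a gap wider than the spread of either group. In the SW-682 experiment they were 117, 92.8 and 133 CPM with vehicle and 55.6, 78.2 and 82.7 CPM with SW-682, where smTEADi 1 was lowest (-0.66 ± 0.17, adjusted p = 0.0543). FBL had 92.7, 102 and 70.1 CPM in Control and 58.3, 56.2 and 56.0 CPM with pTEADi and fell (-0.64 ± 0.12, adjusted p = 0.00271); Control 3 was well below the other two. It had 50.5, 49.3 and 56.9 CPM with vehicle and 23.5, 37.4 and 37.7 CPM with SW-682, without overlap (-0.67 ± 0.17, adjusted p = 0.0528).

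The remaining snoRNP genes had smaller changes. DKC1 had 66.2, 70.5 and 63.8 CPM in Control and 46.3, 42.6 and 52.6 CPM with pTEADi and fell (-0.50 ± 0.10, adjusted p = 0.00314). Under vehicle it had 64.2, 50.8 and 74.4 CPM and with SW-682 35.2, 45.1 and 48.2 CPM (-0.56 ± 0.16, adjusted p = 0.0671); the groups did not overlap, but Vehicle 2 was near smTEADi 3. NOP58 had 45.6, 47.0 and 46.7 CPM in Control and 36.9, 33.5 and 33.4 CPM with pTEADi and fell by the least of the 5 (-0.43 ± 0.09, adjusted p = 0.00486). Vehicle 2, at 32.7 CPM, lay inside the range of the smTEADi libraries at 26.4, 34.8 and 35.9 CPM (-0.40 ± 0.17, adjusted p = 0.169). Of the 32 genes, 8 hold annotated snoRNA genes within their span, among them NOP56 with 5, NOP58 with 4, GNL3 with 6 and NCL with 3; the levels of those snoRNAs are not analysed here.

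Of RNA polymerase I and its cofactors, TCOF1 and DDX21 fell with pTEADi, and POLR1B and MYBBP1A did not pass. The medians of the 4 were -0.47 with pTEADi and -0.47 with SW-682. That was 2 of 4 fallen with pTEADi and 1 of 4 with SW-682, against 13.6% and 3.48% of all genes. TCOF1, the treacle protein that supports transcription of ribosomal DNA (ENSG00000070814.22, GRCh38 chromosome 5, 150357629 to 150400308, plus strand), had 78.0, 73.8 and 100.4 CPM in Vehicle 1, 2 and 3 and 38.2, 50.6 and 54.99 CPM in smTEADi 1, 2 and 3. In the second experiment it had 147, 167 and 133 CPM in Control and 84.7, 77.3 and 82.5 CPM with pTEADi. No treated library reached its lowest control, and the Control libraries stood above all Vehicle libraries. It fell by 42.9% with SW-682 (-0.81 ± 0.16, adjusted p = 0.0371) and by 45.3% with pTEADi (-0.87 ± 0.10, adjusted p = 0.000117). Its SW-682 call held without Vehicle 2 and without smTEADi 1 and was lost without each other library, at adjusted p up to 0.184. Among those other fits, no gene at all passed without Vehicle 1, Vehicle 3 or smTEADi 3.

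DDX21, an RNA helicase that links RNA polymerase I transcription to snoRNA function, had 125, 127 and 125 CPM in Control and 68.6, 73.2 and 86.9 CPM with pTEADi. The Control libraries were tightly placed, and the fall was 39.4% (-0.72 ± 0.10, adjusted p = 0.000334). With vehicle it had 159, 129.5 and 172 CPM and with SW-682 84.1, 123 and 109 CPM, without overlap (-0.55 ± 0.16, adjusted p = 0.0650). POLR1B, the second largest subunit of RNA polymerase I, overlapped between groups in both experiments, at -0.36 ± 0.18 with SW-682 and -0.21 ± 0.13 with pTEADi (adjusted p = 0.230 and 0.243). MYBBP1A, a nucleolar repressor of ribosomal DNA transcription, was at -0.09 ± 0.09 with pTEADi (adjusted p = 0.495), where its groups overlapped. With SW-682 it stood at 60.9, 62.1 and 72.9 CPM against 80.9, 82.0 and 94.3 CPM, without overlap (-0.39 ± 0.11, adjusted p = 0.0637).

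Among the 6 small-subunit factors 4 fell with pTEADi and 0 with SW-682, against 13.6% and 3.48% of all genes. Their medians were -0.39 and -0.41. WDR43, a part of the complex that couples transcription to early processing of the precursor, had the smallest p with pTEADi. It had 31.2, 36.3 and 33.6 CPM in Control and 24.1, 23.4 and 26.2 CPM with pTEADi (-0.46 ± 0.10, adjusted p = 0.00738), and 47.7, 43.6 and 47.6 CPM with vehicle and 32.7, 34.9 and 37.7 CPM with SW-682 (-0.40 ± 0.10, adjusted p = 0.0510). The groups were apart in both experiments, and the Vehicle libraries were above all Control libraries. UTP20, a very large scaffold of the small-subunit processome, had 23.2, 28.7 and 22.7 CPM in Control and 14.6, 17.4 and 18.4 CPM with pTEADi and fell (-0.57 ± 0.13, adjusted p = 0.00917). It had 26.2, 23.0 and 32.6 CPM with vehicle and 14.3, 19.1 and 19.8 CPM with SW-682 (-0.62 ± 0.17, adjusted p = 0.0623), and neither pair of groups overlapped.

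RRP9, a protein of the snoRNP that guides the first cuts of the precursor, had 18.9, 17.5 and 15.98 CPM in Control and 14.6, 11.3 and 12.7 CPM with pTEADi and fell (-0.44 ± 0.14, adjusted p = 0.0328). With vehicle it had 9.32, 8.58 and 11.99 CPM and with SW-682 4.49, 6.37 and 7.02 CPM (-0.74 ± 0.22, adjusted p = 0.0685) and, as for TCOF1, the Control libraries stood above all Vehicle libraries. BYSL, a late factor of small-subunit maturation, had 25.3, 29.9 and 28.7 CPM in Control and 22.4, 21.4 and 22.5 CPM with pTEADi and fell (-0.34 ± 0.11, adjusted p = 0.0359). That call was lost in 5 of 6 fits that left out a library (all but Control 1) and with DESeq2, and that of RRP9 in 3 of 6 (Control 1, pTEADi 2 and pTEADi 3). With SW-682 smTEADi 1 stood alone at 10.7 CPM and smTEADi 3 was above Vehicle 1 and 2 (-0.30 ± 0.23, adjusted p = 0.412). UTP15, which acts with WDR43, did not pass with pTEADi (-0.10 ± 0.14, adjusted p = 0.660) or SW-682 (-0.42 ± 0.16, adjusted p = 0.124), although its smTEADi libraries lay below all Vehicle libraries. RRP12, which takes part in export of the small subunit, overlapped in both experiments (-0.16 ± 0.09 with pTEADi and -0.11 ± 0.13 with SW-682).

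Of the 12 large-subunit factors, 6 fell with pTEADi and 0 with SW-682, against 13.6% and 3.48% of all genes, at medians of -0.30 and -0.30. Every treated library lay below every control for 7 with pTEADi and 5 with SW-682, against 21.7% and 17.3% of all genes. RRS1, which brings the ribosomal RNA and proteins of the central protuberance into the subunit, had 42.4, 52.5 and 47.9 CPM in Control and 33.9, 36.9 and 36.1 CPM with pTEADi (-0.42 ± 0.10, adjusted p = 0.0103). In Vehicle it had 33.9, 27.5 and 35.9 CPM and with SW-682 18.03, 22.9 and 31.3 CPM, where smTEADi 3 was above Vehicle 2 (-0.43 ± 0.19, adjusted p = 0.185). The other members that fell with pTEADi were NIP7 (-0.40 ± 0.13), GNL3 (-0.38 ± 0.13), PES1 (-0.36 ± 0.09), PA2G4 (-0.33 ± 0.09) and RRP1B (-0.27 ± 0.09), with adjusted p from 0.0104 to 0.0477. When each of the 6 libraries was left out in turn, the call of PES1 was lost in 1 of 6 fits (without pTEADi 2), that of PA2G4 in 2 of 6, those of NIP7 and GNL3 in 4 of 6 each and that of RRP1B in 6 of 6. RRP1B was also lost with RLE scaling, with no low-count filter, with DESeq2 and with limma-voom, and NIP7 with RLE scaling. NIP7 binds precursor RNA, GNL3 encodes nucleostemin, a GTPase of proliferating cells, and PA2G4 encodes EBP1, which binds ribosomes. PA2G4, the most abundant of the large-subunit group per length, had 168, 182 and 161 CPM in Control and 142, 126 and 139 CPM with pTEADi, and 157, 144 and 171 CPM with vehicle and 106, 126 and 138 CPM with SW-682 (-0.35 ± 0.12, adjusted p = 0.101). Its groups did not overlap in either experiment.

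PES1, BOP1 and WDR12 form 1 complex, PeBoW, that matures the large subunit, and they differed in whether they passed. PES1 had 113, 128 and 109.9 CPM in Control and 95.8, 88.4 and 88.8 CPM with pTEADi and fell (-0.36 ± 0.09, adjusted p = 0.0104). BOP1 had 158, 181 and 130.2 CPM and 135, 138 and 129.9 CPM, with Control 3 inside the range of the treated libraries (-0.22 ± 0.11, adjusted p = 0.162). WDR12, the member with the smallest log2 fold change with pTEADi, had 20.02, 20.6 and 19.3 CPM and 19.0, 18.3 and 20.2 CPM (-0.06 ± 0.11, adjusted p = 0.731). With SW-682 the same genes were at -0.33 ± 0.12, -0.32 ± 0.14 and -0.24 ± 0.17 (adjusted p = 0.128, 0.184 and 0.383); for WDR12, smTEADi 3 at 25.5 CPM lay among the Vehicle libraries at 26.1, 22.6 and 25.4 CPM. Whether PES1 and its partners differed in response was not tested. The remaining large-subunit members, NOP16 (-0.33 ± 0.12), GRWD1 (-0.21 ± 0.10), PPAN (-0.17 ± 0.09) and NOC2L (-0.11 ± 0.09), did not pass with pTEADi, although NOP16 and PPAN did not overlap between groups; their values with SW-682 were -0.23 ± 0.13, -0.44 ± 0.15, -0.40 ± 0.12 and -0.20 ± 0.11. PPAN shares exons with a read-through gene, PPAN-P2RY11, so its counts depend on how reads were split.

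NPM1, NCL and LYAR, multifunctional proteins of the nucleolus, all fell with pTEADi, against 13.6% of all genes. NPM1 encodes nucleophosmin, a chaperone that holds the outer nucleolar layer together (ENSG00000181163.14, GRCh38 chromosome 5, 171387116 to 171411810, plus strand). It had 425, 454 and 376 CPM in Control and 242, 221 and 274 CPM with pTEADi, a fall of 41.3% (-0.77 ± 0.11, adjusted p = 0.000383). Vehicle libraries had 421, 346 and 466 CPM and smTEADi libraries 192, 304 and 265 CPM (-0.70 ± 0.18, adjusted p = 0.0518), again without overlap. NPM1 has 49 annotated pseudogenes by name, and its expected counts were whole numbers in all but 1 library.

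LYAR, a zinc-finger protein that binds nucleolin and precursor RNA (ENSG00000145220.14, GRCh38 chromosome 4, 4267701 to 4290154, minus strand), had the log2 fold change furthest from 0 in both comparisons. It had 18.6, 19.9 and 17.5 CPM in Control and 8.28, 8.68 and 10.9 CPM with pTEADi, a fall of 50.3% (-1.01 ± 0.14, adjusted p = 0.000459). With vehicle it had 15.4, 13.3 and 20.2 CPM and with SW-682 5.67, 9.26 and 10.9 CPM, without overlap, but the threshold was missed (-0.92 ± 0.25, adjusted p = 0.0568). NCL, nucleolin, a histone and RNA chaperone, had 571, 595 and 544 CPM in Control and 384, 346 and 388 CPM with pTEADi (-0.62 ± 0.09, adjusted p = 0.000501). It had 509.9, 441 and 570.5 CPM with vehicle and 267, 351 and 379.5 CPM with SW-682 (-0.61 ± 0.15, adjusted p = 0.0510).

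Of the polyamine enzymes, SRM fell with pTEADi and ODC1 did not pass; the difference between the genes was not tested. ODC1 encodes ornithine decarboxylase, which makes putrescine, and SRM encodes spermidine synthase, which acts on putrescine. SRM had 62.7, 76.6 and 54.4 CPM in Control and 48.6, 46.8 and 45.4 CPM with pTEADi and fell (-0.46 ± 0.12, adjusted p = 0.0128), a call lost without pTEADi 2 and without pTEADi 3. It had 44.1, 35.9 and 52.6 CPM with vehicle and 22.7, 29.8 and 34.1 CPM with SW-682 (-0.61 ± 0.18, adjusted p = 0.0671). ODC1, picked for a closer view after its values were seen, had 29.3, 44.2 and 51.5 CPM with vehicle and 16.8, 28.4 and 23.6 CPM with SW-682 (-0.86 ± 0.23, adjusted p = 0.0570). Vehicle 1 was only just above smTEADi 2. In Control it had 30.9, 30.3 and 32.9 CPM and with pTEADi 30.7, 32.03 and 36.0 CPM, so the groups overlapped (0.07 ± 0.10, adjusted p = 0.670).

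**Figure D2:**
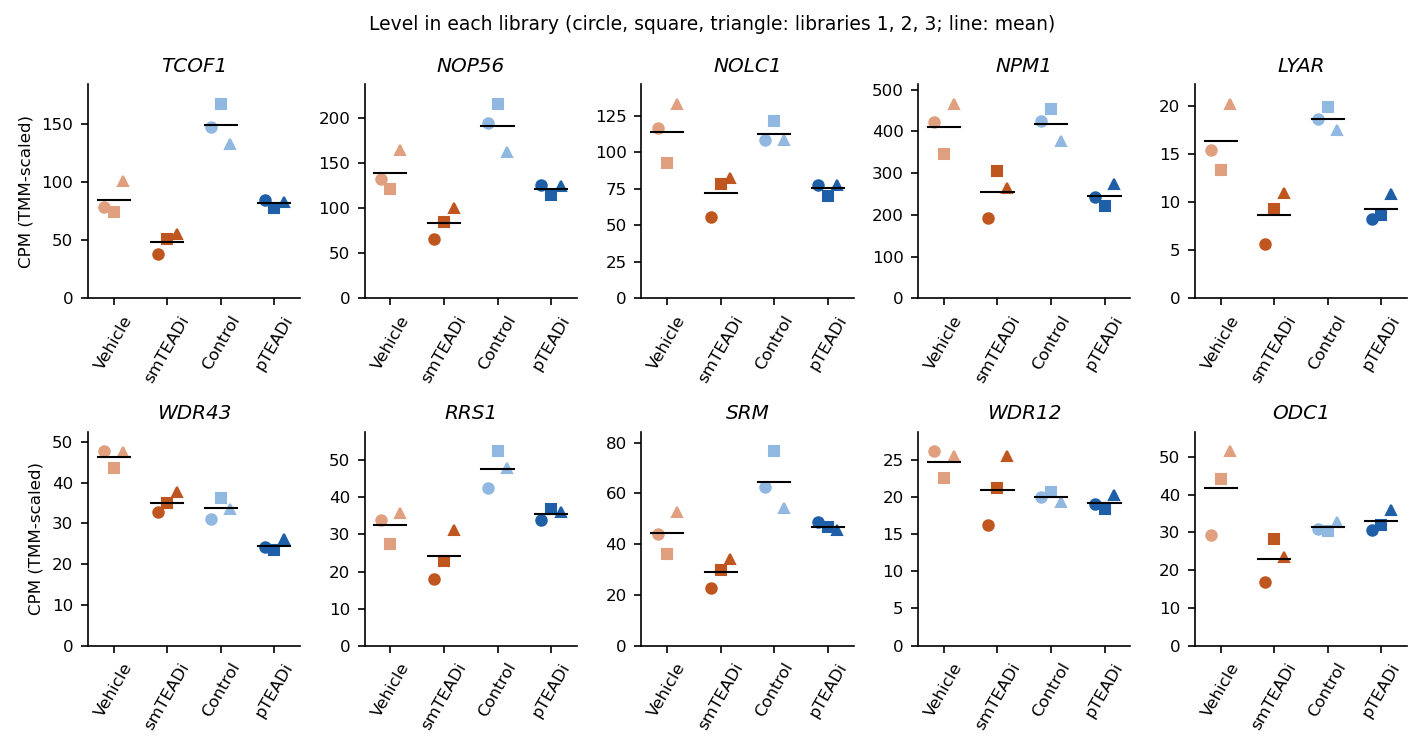
Level in each library (vertical axis, TMM-scaled CPM from 0; horizontal axis, the 4 groups) of 10 genes, with the group mean as a line. TCOF1 in pTEADi lies at 84.7, 77.3 and 82.5 CPM below all Control libraries, while the ODC1 libraries of Control and pTEADi overlap.

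The 2 inhibitors were then set side by side. Of the 32 genes 30 had a negative log2 fold change in both comparisons, against 37.4% of the genes tested in both, and 17 had all treated libraries below all controls in both, against 11.5% of those genes. TCOF1 and NOP56 fell in both, 2 of 32, against 3.27% of genes. Across the 32 genes the 2 log2 fold changes had a Spearman rho of 0.61 (Pearson r = 0.58), or 0.76 without ODC1. Over all genes tested in both, rho was 0.67, so the likeness of the 2 orders was near that of genes in general. The comparisons share no library, but the genes of 1 library are measured together and are not independent. The rho of the log2 fold change with mean log2 CPM over the 32 genes was -0.22 for pTEADi and -0.06 for SW-682.

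No member passed the test of the difference, the pTEADi effect minus the SW-682 effect in 1 fit of all 12 libraries by edgeR, and 2 of 32 had an unadjusted p under 0.05, against 7.13% of all genes. DESeq2 and limma-voom also called 0. Only CEMIP and CPT1A passed among all genes tested, 0.0129% of them. A missed threshold does not show that the effects were alike. ODC1 had the largest difference, 0.93 ± 0.27 (adjusted p = 0.503, from 0.279 to 0.800 without single libraries). GNL3 was next, at -0.40 ± 0.18 (adjusted p = 0.685). It had 30.8, 30.6 and 35.1 CPM with vehicle and 35.6, 35.01 and 27.8 CPM with SW-682, mixed in order, and 27.2, 33.8 and 32.9 CPM in Control and 22.2, 22.6 and 27.6 CPM with pTEADi, where pTEADi 3 was just above Control 1.

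**Figure D3:**
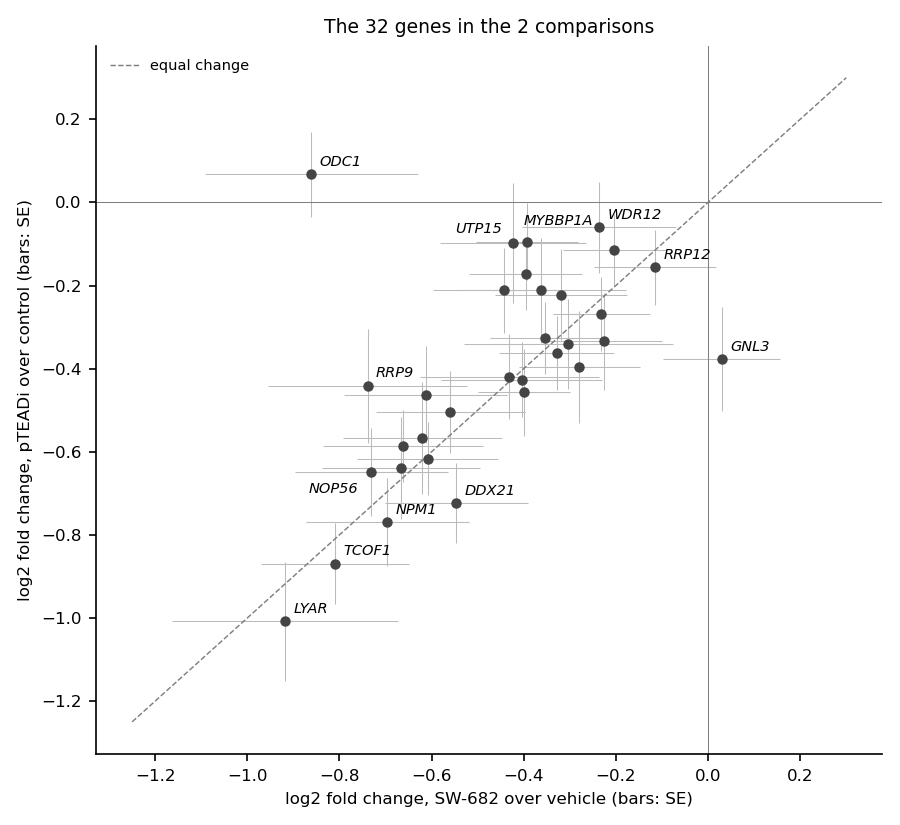
Log2 fold change with SW-682 (horizontal axis) against that with pTEADi (vertical axis), bars SE, 1 point per gene, with a dashed line of equal change. Most points lie near the line below 0; ODC1 lies at -0.86 and 0.07, and GNL3 at 0.03 and -0.38.

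Libraries of 1 group also differed in the same direction for most of the 32 genes. Their mean log2 CPM was 5.72, 5.60 and 5.94 in Vehicle 1, 2 and 3 and 5.05, 5.36 and 5.48 in smTEADi 1, 2 and 3. It was 5.94, 6.09 and 5.92 in Control and 5.58, 5.55 and 5.64 in pTEADi libraries. All treated libraries lay below all of their controls, yet Vehicle 2 and smTEADi 3 were separated by little. smTEADi 1 was the lowest of its group for 30 of 32 genes, against 38.2% of all genes tested. Vehicle 3 was the highest of its group for 28, against 32.2%, and Vehicle 2 the lowest for 25, against 36.2%. With smTEADi 1 and Vehicle 2 both left out, a choice made after seeing the data, 13 members fell with SW-682.

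Markers of cycling cells moved with them. The 10 markers, among them MKI67, TOP2A and CDK1, summed to 590.4 to 941 CPM with vehicle, 198 to 396 with SW-682, 978 to 995 in Control and 432 to 533 with pTEADi. All 10 fell in both comparisons, at medians of -1.34 and -1.01, and none was at 0 in any library. On the mean log2 scale they stood at 6.14, 5.67 and 6.33 in Vehicle 1, 2 and 3 and at 4.15, 5.10 and 4.87 in smTEADi 1, 2 and 3. With pTEADi they stood at 5.44, 5.20 and 5.52. Within the SW-682 experiment smTEADi 1 and Vehicle 2 were the lowest of their groups on both lists, while in Control the cycling markers were within 6.40 to 6.41 on the mean log2 scale. The part of cycling cells in the change of the 32 genes was not tested.

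The other marker lists, named for cell types of stroma, fat and muscle, hold human genes counted on GRCh38. Whether their reads came from the tumour cells or from the host was not tested. None of these markers passed with SW-682 by edgeR. With pTEADi VWF and PLIN4 rose (1.19 ± 0.19 and 0.87 ± 0.24), and COL5A1, FAP, CD74 and CSF1R fell (-0.71 ± 0.10, -0.92 ± 0.25, -0.59 ± 0.11 and -1.39 ± 0.41). Endothelial markers summed to 15.9 to 33.1 CPM with vehicle and 36.3 to 64.2 with SW-682, and to 13.1 to 21.2 in Control and 30.8 to 42.6 with pTEADi; 6 of 7 (all but VWF) were under 10 counts in every library, with KDR and EMCN at 0 throughout. Leukocyte markers summed to 30.9 to 40.8, 30.5 to 52.2, 43.2 to 69.1 and 31.3 to 37.2 CPM in Vehicle, smTEADi, Control and pTEADi. AIF1, TYROBP and CD163 were at 0 throughout, and PTPRC and LYZ were under 10 counts in every library. Fibroblast markers summed to 194 to 267, 190.3 to 225, 257 to 308 and 199.5 to 238 CPM in the same order. COL3A1 and POSTN were at 0, and COL6A3 and PDGFRB were under 10 counts in every library. Of the 5 fibroblast markers tested with pTEADi, 3 were negative, in a range of -0.92 to 0.25. Groups overlapped for 3 of these 5. Adipocyte markers summed to 23.0 to 30.9, 36.2 to 66.5, 14.7 to 22.9 and 17.3 to 20.5 CPM. Of these 7, ADIPOQ, LEP, CIDEC and LPL were at 0 throughout. Only 2 were tested with pTEADi, and the one besides PLIN4 was at -0.30. Skeletal muscle markers, with CKM and DES at 0, summed to 2.67 to 3.63, 2.72 to 4.12, 0.977 to 4.13 and 3.54 to 3.88 CPM. Their part in the results was not tested.

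**Figure D4:**
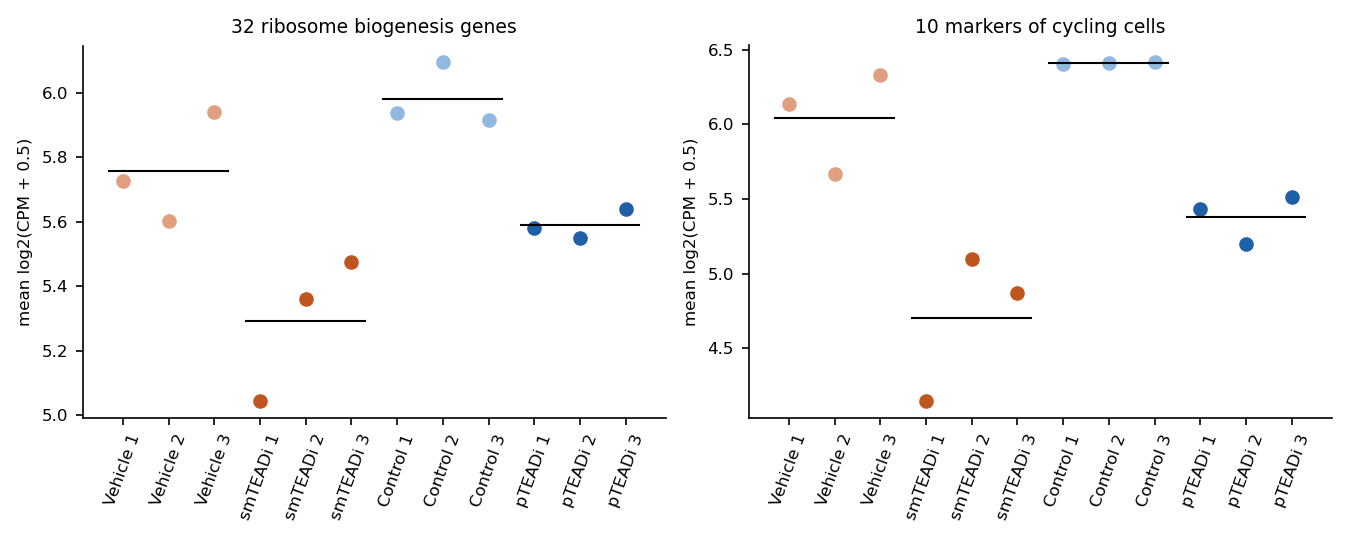
Mean log2(CPM + 0.5) in each of the 12 libraries for the 32 genes (left) and for 10 markers of cycling cells (right), with group means as lines. In the left panel smTEADi 1 is lowest at 5.05 and Control 2 highest at 6.09.

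Levels between genes were compared per kilobase of the main annotated transcript. NPM1 was the most abundant of the 32, at a mean of 252 CPM per kb over the 12 libraries, followed by NCL (114), NOP56 (70.1), PA2G4 (61.5), NOC2L (51.7) and FBL (51.2). UTP15 (2.35), UTP20 (2.40) and WDR12 (2.63) were lowest. By group, NPM1 stood at 317 ± 29.9 CPM per kb in Control, 311 ± 45.6 in Vehicle, 192 ± 43.4 in smTEADi and 186 ± 20.4 in pTEADi (mean ± SD, n = 3). For NPM1, Control and Vehicle did not differ beyond their spread, nor did smTEADi and pTEADi.

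The untreated groups of the 2 experiments differed gene by gene. Every Control library was above every Vehicle library for 14 of 32 genes and below it for 4, against 24.7% and 24.9% of all genes. TCOF1 had 84.1 ± 14.3 CPM in Vehicle and 149 ± 17.2 CPM in Control, so the pTEADi libraries at 81.5 ± 3.81 CPM were level with Vehicle. BOP1 had 88.3 ± 15.96 and 156 ± 25.3 CPM in Vehicle and Control. DDX21, WDR43, UTP15 and WDR12 were the members lower in Control; WDR43 had 46.3 ± 2.35 CPM in Vehicle and 33.7 ± 2.58 CPM in Control. Experiment, cells and vehicle cannot be told apart in this comparison, and it was not tested.

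Other genes of ribosome biogenesis, in 5 lists that exclude the 32, had smaller medians. The 32 and the lists were chosen with earlier results of these data known. Of 143 tested, 33 fell and 3 rose with pTEADi at a median of -0.19, against the background of 13.6% and 12.7%. With SW-682 5 of 144 fell and 0 rose at a median of -0.23, a share near the 3.48% of all genes that fell. A negative log2 fold change was seen for 113 of 143 with pTEADi and 123 of 144 with SW-682, against 50.1% and 48.9% of all genes. Every treated library lay below every control for 55 of 143 with pTEADi and 49 of 144 with SW-682, against 21.7% and 17.3%. With SW-682 42 of 144 were negative at an unadjusted p under 0.05, against 14.0%. Of the RNA polymerase I machinery 4 of 14 fell with pTEADi, among them the subunits POLR1E (-0.83 ± 0.17) and POLR1G (-0.55 ± 0.18) and the selectivity factor TAF1D (-0.53 ± 0.10). Without single libraries 2 to 3 passed, and the call of POLR1G was lost in 5 of 6 fits. None of that list passed with SW-682, where POLR1G came nearest (-0.75 ± 0.23, adjusted p = 0.0800). Of the small-subunit list 10 of 44 fell with pTEADi, including UTP4 (-0.44 ± 0.09), the nuclease NOB1 (-0.54 ± 0.13) and the acetyltransferase NAT10 (-0.34 ± 0.08), and the kinase RIOK2 rose (0.49 ± 0.14). Without single libraries 2 to 12 genes of that list passed, the fewest without pTEADi 2 and the most without Control 3. None of the list passed with SW-682, and WDR36 came nearest (-0.38 ± 0.11, adjusted p = 0.0671).

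Of the large-subunit list 10 of 48 fell with pTEADi and 0 rose, with MRTO4 (-0.61 ± 0.12), RSL1D1 (-0.45 ± 0.09) and NLE1 (-0.50 ± 0.12) first. With SW-682 MRTO4 (-0.71 ± 0.16, adjusted p = 0.0426) and BRIX1 (-0.64 ± 0.12, adjusted p = 0.0365), both assembly factors, fell. Each call was lost in 5 of 6 fits that left out a library. In the SW-682 fits without Vehicle 1, Vehicle 3 or smTEADi 3 no gene at all passed. The list's pTEADi count was 3 to 8 in such fits, lowest without pTEADi 2. Of the snoRNP assembly list, the paired ATPases RUVBL1 and RUVBL2 fell in both comparisons, at -0.60 ± 0.12 and -0.45 ± 0.10 with pTEADi and at -0.76 ± 0.15 and -0.55 ± 0.13 with SW-682 (adjusted p = 0.0371 and 0.0483). Without single libraries their SW-682 calls were lost in 3 of 6 and 6 of 6 fits, and their pTEADi calls in none. A total of 3 of 14 fell with pTEADi, and NOP10, a small H/ACA protein, rose (0.29 ± 0.09), a call lost in 3 of 6 fits. Of the exosome and nuclease list 6 of 23 fell with pTEADi, including the ring subunits EXOSC9 (-0.76 ± 0.14) and EXOSC8 (-0.67 ± 0.15) and the nuclease EXOSC10 (-0.39 ± 0.09), while the nuclease DIS3 rose (0.38 ± 0.11). EXOSC9 fell with SW-682 too (-0.74 ± 0.17, adjusted p = 0.0420), a call lost in 5 of 6 fits that left out a library, and 2 to 7 of the list passed with pTEADi in such fits, the fewest without pTEADi 2.

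The 79 cytosolic ribosomal protein genes, whose products these factors assemble, also had smaller medians. All 79 had a negative log2 fold change in both comparisons, at medians of -0.24 with pTEADi and -0.17 with SW-682. With pTEADi 18 of 79 fell, against 13.6% of all genes, with RPL14 (-0.43 ± 0.10), RPS3 (-0.42 ± 0.11) and RPS25 (-0.34 ± 0.09) first. That count was highly dependent on single libraries: 1 to 58 passed when each was left out in turn, with 1 without Control 1 or pTEADi 2, 2 without pTEADi 3, 5 without pTEADi 1, 7 without Control 2 and 58 without Control 3. The call of RPL14 was kept in all 6 of these fits, and those of RPS3 and RPS25 were lost in 3 of 6 each. Every pTEADi library lay below every Control library for 19 of 79, against 21.7% of all genes. With SW-682 every treated library lay below every Vehicle library for 34 of 79, against 17.3%. There 0 passed by edgeR, DESeq2 called 3, and 7 were negative at an unadjusted p under 0.05, against 14.0% of all genes. RPS2 had the smallest p there (-0.48 ± 0.13, adjusted p = 0.0631). These genes have many pseudogenes, so their counts depend on how shared reads were split.

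MYC itself went from 134, 172 and 112 CPM in Control to 89.1, 83.9 and 81.5 CPM with pTEADi (-0.72 ± 0.13, adjusted p = 0.00214). With vehicle it had 95.4, 89.0 and 96.0 CPM and with SW-682 79.3, 72.7 and 89.5 CPM (-0.22 ± 0.10, adjusted p = 0.211), so it passed in 1 comparison, and the difference of the 2 effects did not pass (-0.50 ± 0.18, adjusted p = 0.628). Of its network, 11 genes were tested with pTEADi: MYC fell, and MXD4, a repressor that competes for MAX, and MYCL rose (0.71 ± 0.11 and 0.78 ± 0.20). That was 1 of 11 fallen and 2 risen, against 13.6% and 12.7% of all genes. The MYCL call was lost in 1 of 6 fits that left out a library. None of 11 passed with SW-682 by edgeR, with 5 at an unadjusted p under 0.05 (against 27.8% of all genes) and 1 called by DESeq2. MAX, the shared partner, was at 0.31 ± 0.12 with pTEADi and 0.36 ± 0.10 with SW-682 (adjusted p = 0.0825 and 0.0699). The repressors MXD1 (-0.57 ± 0.29 and 0.97 ± 0.44), MXI1 (0.07 ± 0.11 and 0.65 ± 0.27) and MNT (-0.06 ± 0.09 and 0.30 ± 0.17) did not pass in either, given in the same order.

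**Figure D5:**
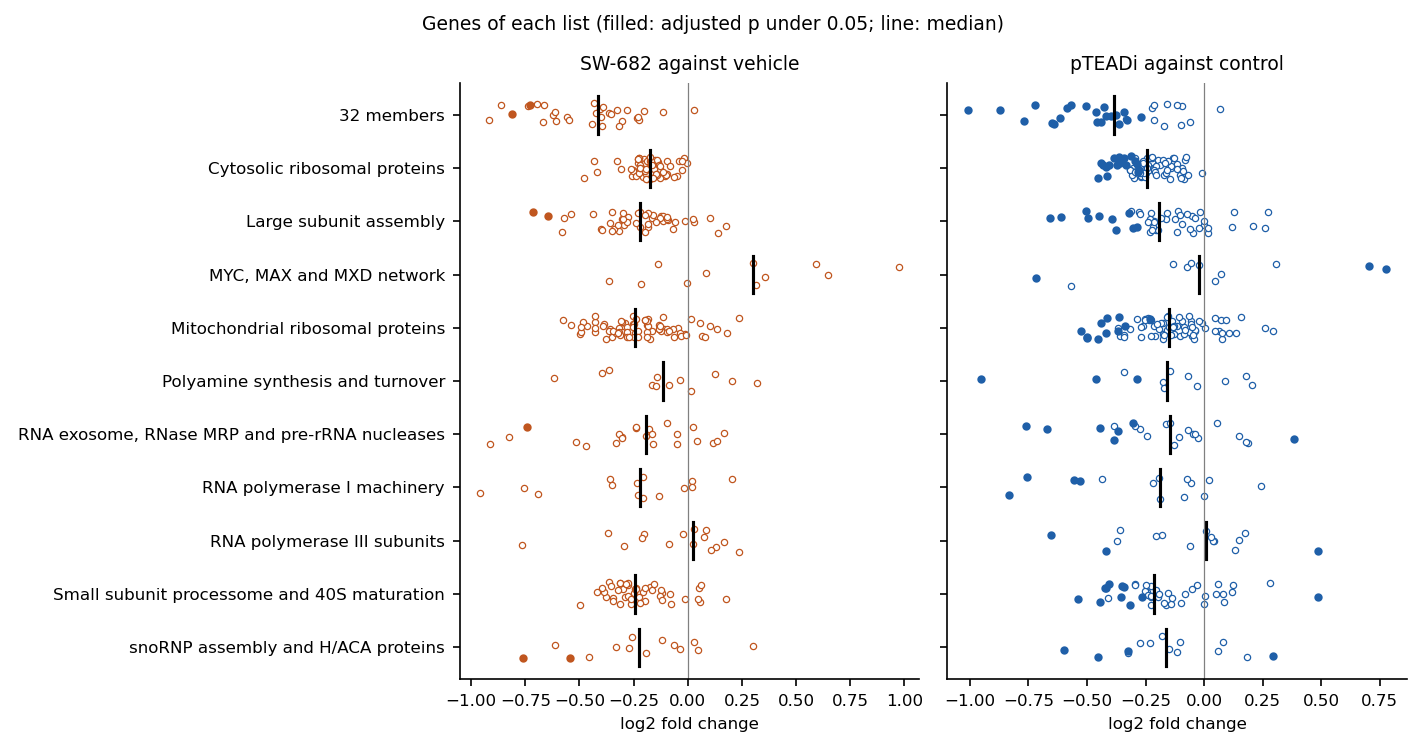
Log2 fold change (horizontal axis) of each tested gene in the 32 and in 10 further lists, for SW-682 (left) and pTEADi (right); filled points have an adjusted p under 0.05 and lines are medians. The median of the 32 genes lies at -0.41 on the left and -0.39 on the right, and that of cytosolic ribosomal proteins at -0.17 and -0.24.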

How the data were processed

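Poly-T selected RNA of 12 Cal33 xenograft tumours was sequenced in paired reads. The authors aligned reads to GRCh38 with STAR 2.7.9a and made expected counts per gene with RSEM 1.3.1, per the submitters' processing notes, using Gencode gene models per the labels. The deposited expected counts are not scaled between libraries. Neither the strand setting nor a separation of mouse host reads is given in the sources used here; 15 of the 32 genes overlap a gene on the opposite strand, and 9 had a count that was not whole in some library.

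Symbols and positions came from Gencode 44 on GRCh38, matched by Ensembl ID without version (60463 of 60649 IDs had a symbol). After rounding, counts entered edgeR 4.0.16 under R 4.3.3 (filterByExpr at a minimum count of 10, TMM, two-sided quasi-likelihood F test, adjusted p under 0.05), each treatment against its own control, and the difference in 1 fit of 12 libraries. The SE of a log2 fold change was derived from its F value. CPM use TMM factors over all 12 libraries, and levels per length use the MANE Select transcript. The biological coefficient of variation was 0.157 and 0.118 in the SW-682 and pTEADi fits. Each test was run first on simulated data. Other settings tried were scaling by RLE or the upper quartile, leaving out the low-count filter, 10 counts in 3 libraries, DESeq2 1.42.0, limma-voom (limma 3.58.1), unrounded counts, a replicate block, 1 fit of all libraries, a threshold of 0.01, and leaving out each library.

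The members and lists were chosen with earlier results of these data known. All 32 members may be named. Values of every library are given for members past the threshold with SW-682 or for the difference, for the smallest p with pTEADi in each role, for the largest and smallest change with pTEADi and for the highest level per length; others so described were picked after their values were seen. From each further list came up to 3 genes with the smallest p past the threshold with pTEADi and the 1 with the smallest p with SW-682, besides MYC, MAX, MXD1, MXI1 and MNT; RIOK2 and DIS3 were added as the genes of their lists that rose.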

Additional observations from a re-analysis of the deposited data

How the results depend on the processing

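With SW-682, the count of members past the threshold (2) became 16 with no low-count filter, 15 with DESeq2, 5 with limma-voom, 18 in 1 fit of all 12 libraries, 13 without smTEADi 1 and Vehicle 2 together and 0 at an adjusted p under 0.01, and ranged from 0 to 13 without single libraries. The count over all genes (816) became 2101, 1868, 2303, 2073 and 0 under no filter, DESeq2, 1 fit of all libraries, the 2 libraries left out and the stricter threshold, and ranged from 0 to 1622 without single libraries. With pTEADi the members numbered 12 and all genes 2138 at an adjusted p under 0.01, against 21 and 3864, with ranges of 13 to 20 and 2325 to 4379 without single libraries. For the difference of the effects, 1 member (ODC1) and 377 genes passed with no filter and 37 genes with DESeq2, against 0 and 2; 0 genes passed the stricter threshold, and without single libraries 0 members and 0 to 20 genes passed. With the replicate number as a block, 0 members and 0 genes passed with SW-682, 18 members with pTEADi and 0 genes for the difference; the numbers are not taken as pairs, since deviations of libraries with the same number correlated at -0.15 to 0.15. The cause of these changes was not tested. RLE and upper-quartile scaling, 10 counts in 3 libraries and unrounded counts changed no sign among the 32 genes. GNL3 with SW-682 changed sign without smTEADi 1 and Vehicle 2 together (-0.0654). Signs near 0 also turned without single libraries, with ranges for SW-682 of -0.0326 to 0.13 (GNL3), -0.22 to 0.00809 (RRP12), -0.0293 to 0.11 (NOP10) and -0.15 to 0.10 (SMOX), and for pTEADi of -0.10 to 0.00869 (MNT) and -0.00998 to 0.15 (MXI1). At 3 libraries a group and these totals, small changes may have been missed, and the smallest detectable change was not determined.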

Other observations

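Genes of the mitochondrial ribosome, which is built apart from the nucleolus, passed as fallen with pTEADi about as often as genes in general. Most had a negative log2 fold change. Of 77 tested, 11 fell and 0 rose with pTEADi, at a median log2 fold change of -0.15, against 13.6% and 12.7% of all genes. A negative log2 fold change was seen for 64 of 77 with pTEADi and 69 of 77 with SW-682, against 50.1% and 48.9%. MRPL3 (-0.50 ± 0.09), MRPL11 (-0.52 ± 0.10) and MRPL44 (-0.50 ± 0.12) came first, and their calls were kept without any single library, while the count for the list was 3 to 17 (3 without Control 1, 17 without Control 3, 4 or 5 without each other library). Every pTEADi library lay below every Control library for 20 of 77, against 21.7% of all genes. With SW-682 every treated library lay below every Vehicle library for 32 of 77, against 17.3%. There 0 passed by edgeR and DESeq2 called 6, at a median of -0.24, and 25 were negative at an unadjusted p under 0.05, against 14.0%. MRPL4 had the smallest p with SW-682 (-0.48 ± 0.13, adjusted p = 0.0580). RNA polymerase III, which makes the smallest ribosomal RNA and transfer RNAs, showed no common shift, with medians of 0.01 and 0.02 over 15 genes for pTEADi and SW-682. With pTEADi POLR3K (-0.66 ± 0.13) and POLR3D (-0.42 ± 0.12) fell and POLR3GL rose (0.49 ± 0.16). That was 2 of 15 fallen and 1 risen, against 13.6% and 12.7% of all genes. Without single libraries the calls of POLR3D and POLR3GL were lost in 3 of 6 and 6 of 6 fits.

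Beyond SRM and ODC1, 3 of 12 polyamine genes fell with pTEADi and 0 rose, against 13.6% and 12.7% of all genes. SMS, spermine synthase, went from 62.0, 79.2 and 59.95 CPM in Control to 39.4, 29.1 and 35.5 CPM with pTEADi (-0.95 ± 0.13, adjusted p = 0.000448). With vehicle SMS had 50.05, 41.9 and 61.5 CPM and with SW-682 32.5, 41.2 and 26.4 CPM (-0.62 ± 0.18, adjusted p = 0.0708). AMD1, which supplies the aminopropyl donor, and SMOX, spermine oxidase, fell with pTEADi (-0.29 ± 0.09 and -0.46 ± 0.14), but these calls were lost in 4 of 6 and 5 of 6 fits that left out a library; that of SMS was kept in all 6. None of 12 passed with SW-682 by edgeR, and DESeq2 called 1. An unadjusted p under 0.05 was seen for 4 of 12, of which 3 were negative, against 27.8% of all genes.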
